A study of Homo sapiens with 12 samples.

Results

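Notch signaling passes between neighbouring cells. Ligands of the Jagged and Delta-like families on one cell bind NOTCH receptors on the next, the receptor is cut by ADAM proteases and then by the gamma-secretase complex, and the freed intracellular part enters the nucleus, joins the DNA-binding protein RBPJ and a MAML coactivator, and turns on genes such as the HES and HEY repressors. In skeletal muscle, Notch signaling is known for keeping satellite cells, the muscle stem cells, from differentiating. The genes described here are 3 receptors (NOTCH1, NOTCH2 and NOTCH3), 3 ligands (JAG1, JAG2 and DLL1) and 4 HES/HEY transcription factors (HES1, HEY1, HEYL and HES6), found by symbol among the 65975 genes of the expression table. All 10 were found and none was removed by the filter on low values.

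RNA was sequenced from RD cells, a fusion-negative rhabdomyosarcoma (FN-RMS) line grown in DMEM, and Rh30 cells, a fusion-positive (FP-RMS) line grown in RPMI. Rhabdomyosarcoma (RMS) is a tumor with features of skeletal muscle. Cells of each line were transduced with lentivirus carrying a Scrambled control shRNA (Scramble) or 1 shRNA against the histone demethylase KDM3A (KDM3A-sh2) and selected with puromycin, also in the controls, which gave 4 groups of 3 libraries. Since a single KDM3A shRNA was used, loss of KDM3A and any other effect of that shRNA cannot be told apart, and each RMS subtype was represented by 1 line in its own medium.

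Expression is given in FPKM, fragment numbers scaled to the exon length of each gene and to the mapped reads of each library, so that levels of different genes can be compared. FPKM hide the number of reads, and the depth of the libraries relative to the median library, estimated from the lowest values, was 1.05 to 1.22 in RD Scramble, 0.865 to 1.00 in RD KDM3A-sh2, 0.998 to 1.04 in Rh30 Scramble and 0.942 to 0.991 in Rh30 KDM3A-sh2. Changes are on the scale of log2(FPKM + 1), which understates those of low genes. They were tested with limma over all genes whose mean over the libraries compared was 1 FPKM or more, and "called" means a Benjamini-Hochberg adjusted p below 0.05. Separate cultures for the 3 libraries of a group are not stated in the sources, so p-values measure the spread between these libraries. The columns of the 3 Rh30 Scramble libraries share the ending 1 in their names, and if these were 1 culture sequenced repeatedly, their SD and n = 3, and every test that uses them, would cover technical spread alone in that group. The smallest p that an exact permutation test can reach for 1 gene here is 0.1, and lower p-values come from limma's pooling of the spread over genes.

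KDM3A, the target of the shRNA, was measured at 35.8, 33.9 and 30.9 FPKM with Scramble and at 12.0, 11.2 and 13.4 FPKM with KDM3A-sh2 in RD. In Rh30 the values were 27.8, 29.2 and 32.0 FPKM for Scramble and 13.7, 13.2 and 15.4 FPKM with KDM3A-sh2. No KDM3A-sh2 library of either line reached the level of a Scramble library. The log2 fold change was -1.39 (SE 0.08, adjusted p = 5e-05) in RD. In Rh30 it was -1.02 (SE 0.08, adjusted p = 0.000348). Of 5 skeletal muscle markers, 4 were expressed in every group (MYOD1, MYOG, DES and CHRNA1, with 113 to 1436 FPKM as group means), while MYF5 was at or near 0 throughout.

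Motif matches in the 250 bases before the RefSeq start (GRCh38.p14) are shown here for HES1, HEYL and HES6, which belong to the HES/HEY factors. Windows were found for 8 of the 10 genes. The letters TGGGAA, the core of the sequence that RBPJ binds, searched on both strands, occurred in HES1 and HEYL, with 2 matches in each, and in none of the other 6. Among all 35116 promoter windows of that length, 20.8% held TGGGAA at least once and 2.9% at least 2 times. CAGCTG, an E-box of the kind bound by MyoD and related factors, occurred in 1 of the 8, HES6, and in 14% of all windows. CACGTG, which HES and HEY proteins can bind, occurred in none of the 8 and in 6.34% of all windows, and CACNAG, another sequence bound by HES proteins, in HES1 and NOTCH3 and in 32% of all windows. The matches in capitals below are TGGGAA in HES1 and HEYL, read on the other strand in the first HEYL stretch, and CAGCTG in HES6. The HES1 stretch lies on the plus strand at chr3:194136048-194136144, upstream of the gene's exons in GENCODE 29. The HEYL stretches lie on the minus strand at chr1:39639804-39639833 and chr1:39639725-39639754, inside a HEYL exon of GENCODE 29, and the HES6 stretch lies on the minus strand at chr2:238240179-238240208, outside its exons. A match is a run of letters, and binding was not measured.
HES1: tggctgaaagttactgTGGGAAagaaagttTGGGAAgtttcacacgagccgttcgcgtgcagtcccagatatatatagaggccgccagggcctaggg
HEYL, first: ccgcctagggccTTCCCAcggctcggcggc
HEYL, second: aggaaagggcccTGGGAAagggcggtggcg
HES6: gcctagctcagcCAGCTGcccgaccgccag

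Under the control shRNA, HEY1 and NOTCH3 were the most highly expressed of the 10 genes in RD, at 208 ± 4.40 and 117 ± 3.23 FPKM (SD, n = 3 each). They were followed by NOTCH2 (70.7 ± 3.65 FPKM), JAG2 (59.0 ± 1.95 FPKM), HEYL (36.0 ± 0.642 FPKM) and NOTCH1 (30.4 ± 0.897 FPKM; SD, n = 3 each). DLL1 (28.3 ± 0.551 FPKM) and HES6 (27.8 ± 0.792 FPKM) overlapped between libraries and were followed by JAG1 (9.97 ± 0.838 FPKM) and HES1 (4.86 ± 0.352 FPKM; SD, n = 3 each). All other neighbours in this order had separate ranges. In Rh30 with Scramble, HES6 (70.0 ± 3.91 FPKM) and NOTCH3 (69.9 ± 5.50 FPKM; SD, n = 3 each) stood highest and overlapped. HEYL (60.3 ± 2.95 FPKM), NOTCH2 (48.4 ± 0.604 FPKM) and JAG2 (28.8 ± 1.01 FPKM) came next with separate ranges. NOTCH1 (15.6 ± 1.36 FPKM) overlapped with DLL1 (14.6 ± 1.86 FPKM), HES1 followed at 8.55 ± 0.253 FPKM, and JAG1 (6.43 ± 0.938 FPKM) overlapped with HEY1 (5.50 ± 0.726 FPKM; SD, n = 3 each). HEY1 thus stood first in RD and last in Rh30.

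**Figure D1:**
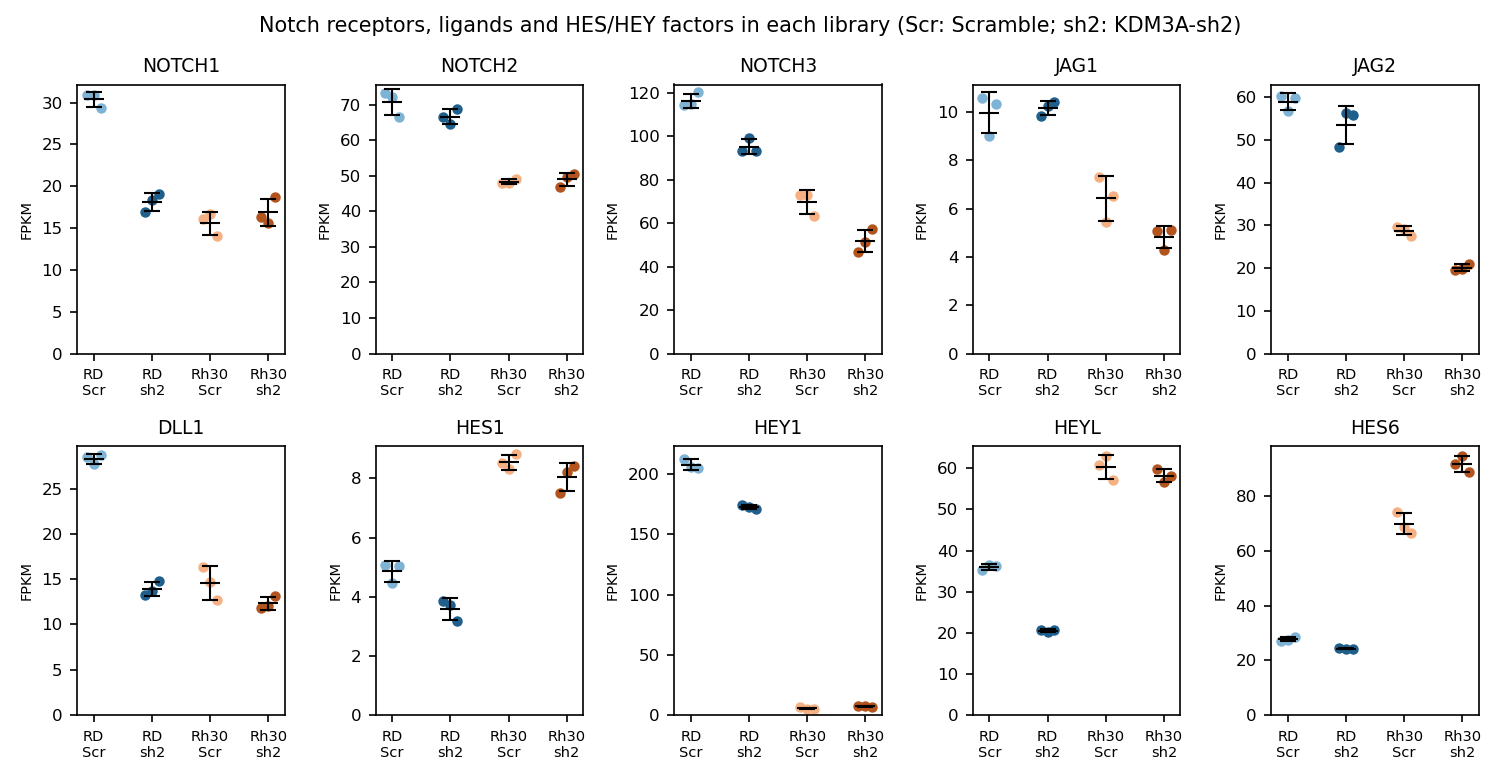
FPKM (linear axes from 0) of the 10 genes in each library, by group; points are libraries, and bars show the mean and SD of 3 libraries. NOTCH1, DLL1 and HEYL with KDM3A-sh2 lie below Scramble with no overlap in RD and overlap in Rh30, and HEY1 lies above 170 FPKM in every RD library and below 8 FPKM in every Rh30 library.

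With Scramble, all 3 receptors and all 3 ligands were lower in Rh30 than in RD, while 3 of the 4 HES/HEY factors were higher. All 10 genes were called, 7 lower and 3 higher, and none had overlapping groups. Such differences were frequent between the lines: of 18367 genes tested, 39.6% were called lower and 34.9% higher in Rh30, and 41.1% were lower and 36.4% higher in every library. Line and medium cannot be told apart here. The log2 fold changes of the receptors were -0.93 for NOTCH1, -0.54 for NOTCH2 and -0.73 for NOTCH3 (SE 0.05 to 0.07). Those of the ligands were -0.57 for JAG1 (SE 0.11), -1.01 for JAG2 (SE 0.05) and -0.92 for DLL1 (SE 0.09). HEY1, a repressor of the Hairy/E(spl)-related family, was at 213, 206 and 205 FPKM in RD and at 6.33, 5.02 and 5.13 FPKM in Rh30. Its mean was 37.8-fold higher in RD (log2 fold change -5.01, SE 0.08, adjusted p = 1.78e-08), and 0.441% of the genes tested had a change that low or lower. HES1, the classical Notch target, was higher in Rh30 (log2 fold change 0.71, SE 0.08), as were HEYL, a relative of HEY1 (0.73, SE 0.05), and HES6, a divergent family member that can oppose HES1 (1.30, SE 0.05). The largest adjusted p among the 10 was 0.00308, for JAG1. The median over the 10 genes was -0.65, against -0.04 over all genes tested, and rescaling each library to the same sum (the TPM scale) put these at -0.75 and -0.14.

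The makeup of each role showed where the lines differed most. NOTCH3 held 53.6 ± 1.81% of the summed receptor FPKM in RD and 52.1 ± 1.73% in Rh30 with Scramble, and JAG2 held 60.7 ± 0.105% and 57.9 ± 2.08% of the summed ligand FPKM (SD, n = 3 each). Of the summed HES/HEY FPKM, HEY1 held 75.2 ± 0.685% in RD and 3.80 ± 0.387% in Rh30 (SD, n = 3 each). In Rh30, HES6 with 48.5 ± 1.03% and HEYL with 41.8 ± 1.42% made up most of that sum, against 10.1 ± 0.367% and 13.0 ± 0.392% in RD (SD, n = 3 each). The predominant receptor and ligand were therefore the same in both lines, and the predominant HES/HEY factor was not. With KDM3A-sh2, the share of DLL1 among the ligands in RD was 17.9 ± 0.794%, against 29.1 ± 0.474% with Scramble (SD, n = 3 each). In Rh30 the share of NOTCH3 among the receptors was 43.9 ± 1.32% with KDM3A-sh2, against 52.1 ± 1.73% with Scramble (SD, n = 3 each). These shares were not tested.

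**Figure D2:**
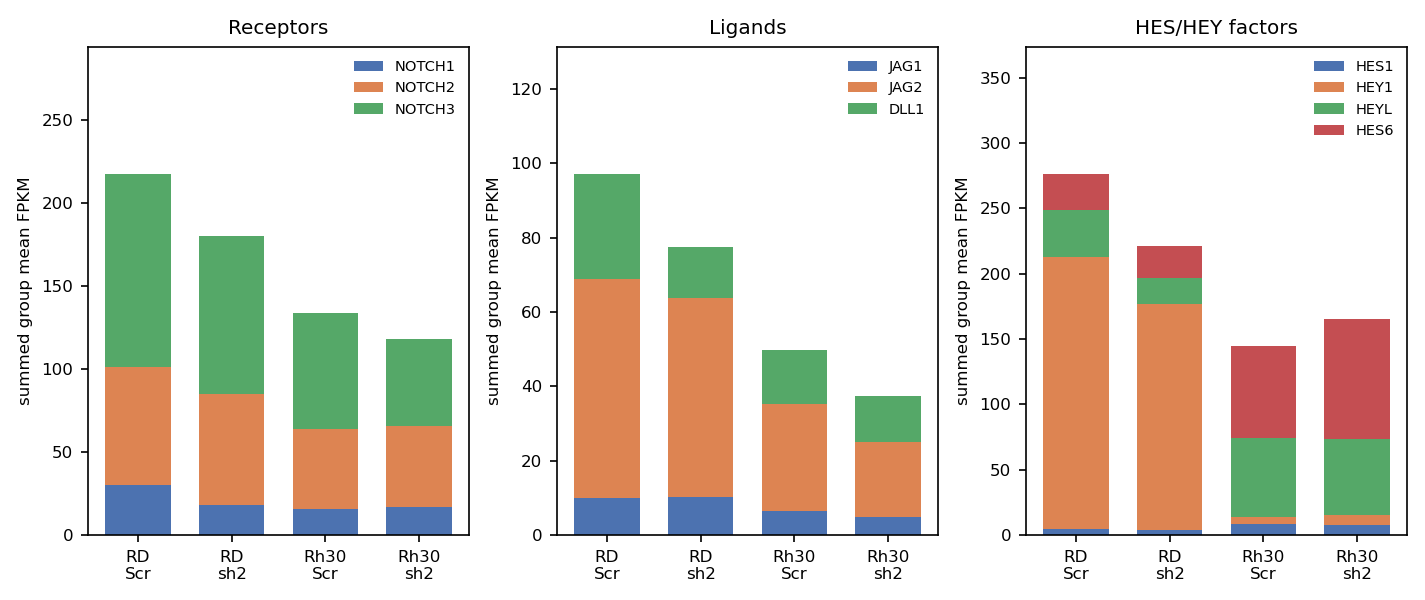
Group mean FPKM (linear axis from 0) of the receptors, ligands and HES/HEY factors, stacked within each role for the 4 groups of 3 libraries. NOTCH3 is the largest part of the receptors in all 4 groups and JAG2 that of the ligands, while HEY1 is the largest part of the HES/HEY factors in RD and HES6 in Rh30.

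In RD cells, KDM3A knockdown was accompanied by lower expression of 2 receptors, 1 ligand and all 4 HES/HEY factors: NOTCH1, NOTCH3, DLL1, HES1, HEY1, HEYL and HES6 were called lower and none of the 10 was called higher. The largest changes were in DLL1, which fell to 49.2% of its Scramble mean, HEYL (57.1%) and NOTCH1 (59.6%). With a 1.5-fold requirement, these 3 of the 7 remained called. Over the 18001 genes tested in RD, 19.5% were called lower and 21.6% higher, so that 7 of 10 lower stands against a background of about 1 gene in 5. The 10 genes were chosen with earlier results of these data known, so their count is not independent of the data. The median log2 fold change was -0.28 over the 10 genes and 0.01 over all genes tested. The groups did not overlap, with lower values in KDM3A-sh2, in 8 of the 10, the 7 called genes and JAG2, against 25.3% of all genes (28.1% in the other direction).

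Of the receptors in RD, NOTCH1 was at 30.9, 31.0 and 29.4 FPKM with Scramble and at 16.9, 18.3 and 19.1 FPKM with KDM3A-sh2. Each KDM3A-sh2 library lay more than 10 FPKM below each Scramble library, a log2 fold change of -0.72 (SE 0.06, adjusted p = 0.00017). NOTCH3 was at 114, 115 and 120.3 FPKM with Scramble and at 93.4, 99.5 and 93.2 FPKM with KDM3A-sh2, again without overlap (log2 fold change -0.29, SE 0.04, adjusted p = 0.0018). NOTCH2 was at 73.3, 72.3 and 66.5 FPKM with Scramble and at 66.6, 64.7 and 68.8 FPKM with KDM3A-sh2. The NOTCH2 groups overlapped and the gene was not called (log2 fold change -0.08, 95% interval -0.20 to 0.04, adjusted p = 0.233). Its log2 fold change was -0.12 to -0.06 with a library left out. NOTCH2 may share reads with its near copies, listed as NOTCH2NL under a pair of identifiers, one at 2.07 to 5.50 FPKM over the libraries and the other at 0.147 FPKM or less.

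Of the ligands in RD, DLL1 was at 28.5, 27.7 and 28.7 FPKM with Scramble and at 13.2, 13.7 and 14.8 FPKM with KDM3A-sh2. The groups were far apart, and the log2 fold change of -0.98 (SE 0.06, adjusted p = 4.88e-05) was large for RD, where 1.5% of the genes tested had a change that low or lower. DLL1 overlaps FAM120B on the opposite strand without a shared exon base in GENCODE 29, and FAM120B had group means of 27.4 and 29.1 FPKM (Scramble, then KDM3A-sh2). JAG2 was at 60.3, 56.8 and 59.9 FPKM with Scramble and at 48.4, 56.4 and 55.9 FPKM with KDM3A-sh2. Although its groups did not overlap, the closest libraries differed by less than 1 FPKM and the gene was not called (log2 fold change -0.14, 95% interval -0.30 to 0.02, adjusted p = 0.136). Without RD KDM3A-sh2 replicate 1, the lowest library, its log2 fold change was -0.07. JAG2 shares 469 exon bases with AL512356.1 on the same strand, with which it may share reads, and which had group means of 0.000462 and 0.998 FPKM (Scramble, then KDM3A-sh2). JAG1 was at 10.6, 9.02 and 10.3 FPKM with Scramble and at 9.83, 10.2 and 10.4 FPKM with KDM3A-sh2, which overlapped (log2 fold change 0.03, 95% interval -0.16 to 0.21, adjusted p = 0.814).

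All 4 HES/HEY factors were called lower in RD. HEYL was at 35.3, 36.5 and 36.2 FPKM with Scramble and at 20.7, 20.2 and 20.7 FPKM with KDM3A-sh2. The libraries of each HEYL group lay within 1.5 FPKM of each other, and the log2 fold change was -0.78 (SE 0.04, adjusted p = 3.82e-05). HEY1 was at 213, 206 and 205 FPKM with Scramble and at 174, 173 and 172 FPKM with KDM3A-sh2. This was the largest difference in FPKM among the 10 genes but a small one on the log scale (log2 fold change -0.27, SE 0.03, adjusted p = 0.00068). HES6 was at 27.3, 27.4 and 28.7 FPKM with Scramble and at 24.7, 24.1 and 24.2 FPKM with KDM3A-sh2, a log2 fold change of -0.19 (SE 0.05, adjusted p = 0.0158). HES1, the lowest of the 10, was at 5.07, 4.45 and 5.05 FPKM with Scramble and at 3.85, 3.72 and 3.17 FPKM with KDM3A-sh2. Its groups did not overlap, but its log2 fold change of -0.36 (SE 0.10, adjusted p = 0.0295) was no longer called without RD Scramble replicate 1 or 3 or without RD KDM3A-sh2 replicate 2 or 3 (adjusted p = 0.0575 to 0.0841), and was lost with no filter on low values (0.0731). In all, 7 of 14 alternatives kept it. HES6 was likewise not called without RD KDM3A-sh2 replicate 2 (adjusted p = 0.0513).

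In Rh30 cells, 4 of the 10 genes were called, NOTCH3 and JAG2 lower and HEY1 and HES6 higher. None of these 4 remained called with a 1.5-fold requirement. Over the 17811 genes tested in Rh30, 13.2% were called lower and 15.3% higher. The groups did not overlap in 3 genes with lower values (NOTCH3, JAG2 and JAG1) and in 2 with higher values (HEY1 and HES6), against 20.2% and 25.6% of all genes. The median log2 fold change was -0.07 over the 10 genes and 0.03 over all genes tested, a median that spans genes called in both directions.

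NOTCH3 in Rh30 was at 73.2, 72.9 and 63.5 FPKM with Scramble and at 46.9, 51.3 and 57.1 FPKM with KDM3A-sh2. Its groups were separate but broad (log2 fold change -0.43, SE 0.09, adjusted p = 0.0131), and an F test of each gene on unlogged FPKM, without limma's pooled spread, did not call it (adjusted p = 0.0603). JAG2 was at 29.5, 29.1 and 27.6 FPKM with Scramble and at 19.6, 19.8 and 21.0 FPKM with KDM3A-sh2. The JAG2 libraries lay close together within each group, with a log2 fold change of -0.49 (SE 0.05, adjusted p = 0.00113). AL512356.1, with which JAG2 may share reads, had Rh30 group means of 0.00269 and 0.351 FPKM (Scramble, then KDM3A-sh2). JAG1 was at 7.32, 5.45 and 6.52 FPKM with Scramble and at 5.06, 4.29 and 5.10 FPKM with KDM3A-sh2, and the log2 fold change of -0.35 was not called (95% interval -0.63 to -0.06 before adjustment, adjusted p = 0.0703). It was called without Rh30 Scramble replicate 2, the lowest of the Scramble libraries (adjusted p = 0.0402).

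HES6 in Rh30 was at 74.3, 69.0 and 66.7 FPKM with Scramble and at 92.0, 94.9 and 88.9 FPKM with KDM3A-sh2. All 3 KDM3A-sh2 libraries lay above all Scramble libraries, with a log2 fold change of 0.39 (SE 0.05, adjusted p = 0.0026). HEY1 was at 6.33, 5.02 and 5.13 FPKM with Scramble and at 7.36, 7.71 and 6.96 FPKM with KDM3A-sh2. The groups were separate at a level far under that of RD, and the log2 fold change of 0.37 (SE 0.10, adjusted p = 0.035) was lost under several alternatives, among them each omission of Rh30 Scramble replicate 2 or 3 or of any Rh30 KDM3A-sh2 library (adjusted p = 0.0627 to 0.104). The other 5 genes overlapped between the groups of Rh30 and were not called. NOTCH1 had means of 15.6 and 16.9 FPKM (log2 fold change 0.11, 95% interval -0.11 to 0.33), and NOTCH2 of 48.4 and 49.0 FPKM (0.02, -0.09 to 0.12). The NOTCH1 value was 0.036 to 0.16 with a library left out. DLL1 had means of 14.6 and 12.3 FPKM (-0.22, -0.45 to 0.02) and was called without Rh30 Scramble replicate 3 (-0.31, adjusted p = 0.0456), whereas without replicate 1 of that group it was -0.14 (adjusted p = 0.338). HES1 had means of 8.55 and 8.05 FPKM (-0.08, -0.25 to 0.09), and HEYL of 60.3 and 58.2 FPKM (-0.05, -0.17 to 0.07). With a library left out, these values were -0.11 to -0.04 for HES1 and -0.09 to -0.02 for HEYL.

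The difference between the lines was tested directly, by subtracting the RD log2 fold change from the Rh30 one, over all 12 libraries. It was called for 6 of the 10 genes: positive for NOTCH1, DLL1, HEYL, HEY1 and HES6, and negative for JAG2. Of 18532 genes tested, 14.4% had a positive and 13.5% a negative called difference. NOTCH1 (difference 0.83, SE 0.11, adjusted p = 0.000342), DLL1 (0.76, SE 0.12, adjusted p = 0.000781) and HEYL (0.73, SE 0.06, adjusted p = 1.04e-05) were lower with KDM3A-sh2 in RD and not called in Rh30. HEY1 (difference 0.63, SE 0.10, adjusted p = 0.000715) and HES6 (0.58, SE 0.06, adjusted p = 9.17e-05) were called lower in RD and higher in Rh30. The Rh30 call of HEY1 was kept under 5 of 14 alternatives, and that of HES6 under 14 of 15. JAG2 was called lower in Rh30 alone, with a difference of -0.35 (SE 0.09, adjusted p = 0.0102). The F test on unlogged FPKM, which compares changes in FPKM and not on the log scale, did not call a difference (adjusted p = 0.462). It asks another question where levels differ between the lines, as those of JAG2 did. For NOTCH3 (difference -0.14, 95% interval -0.36 to 0.09), NOTCH2 (0.10, -0.04 to 0.24), JAG1 (-0.37, -0.69 to -0.06) and HES1 (0.28, 0.03 to 0.52), the difference was not called after adjustment. That of NOTCH3 was -0.21 to -0.07 with a library left out. NOTCH3 was the only one of the 10 called in the same direction in both lines.

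**Figure D3:**
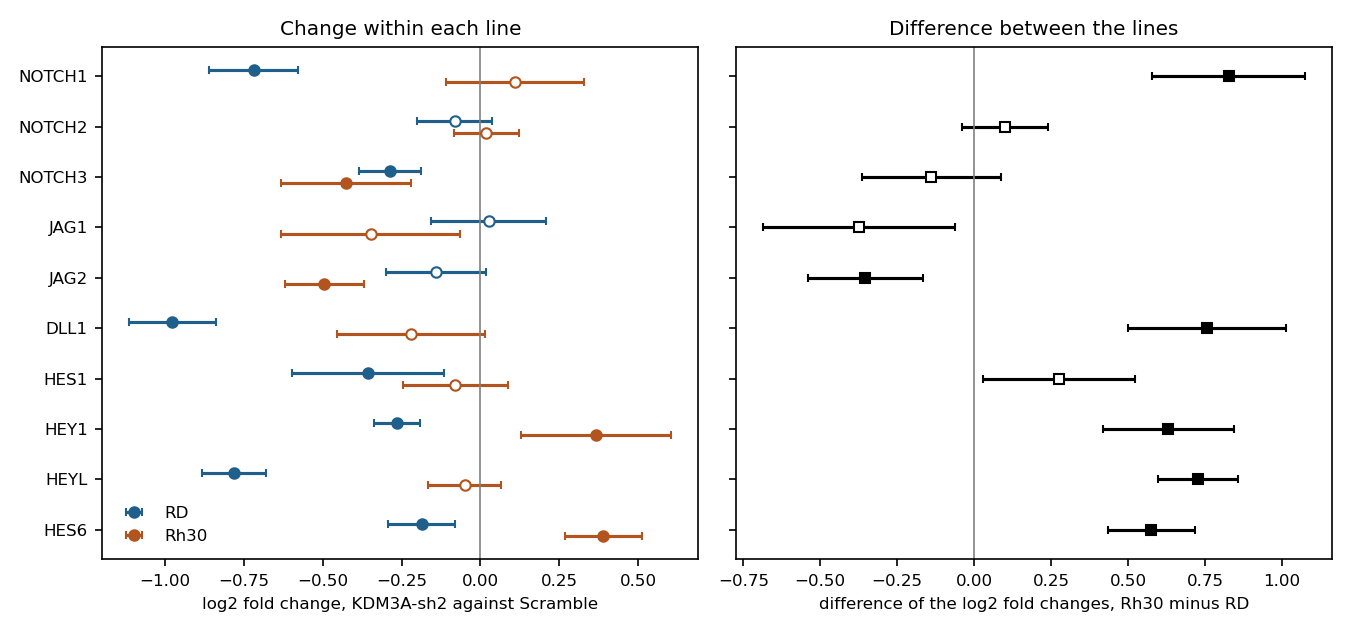
Left, log2 fold change of KDM3A-sh2 against Scramble in RD and Rh30 for each of the 10 genes; right, the difference between the lines (Rh30 minus RD). Bars are 95% intervals before adjustment over genes, and filled symbols passed the adjusted threshold: NOTCH1, DLL1 and HEYL lie left of 0 in RD and near 0 or uncalled in Rh30, and HEY1 and HES6 lie on opposite sides of 0.

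KDM3A itself was lowered less in Rh30 than in RD (difference 0.37, SE 0.12, adjusted p = 0.0387), a call that was lost under several alternatives, among them 8 of the 12 omissions of 1 library. The part of this in the differences of the Notch genes was not tested.

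**Figure D4:**
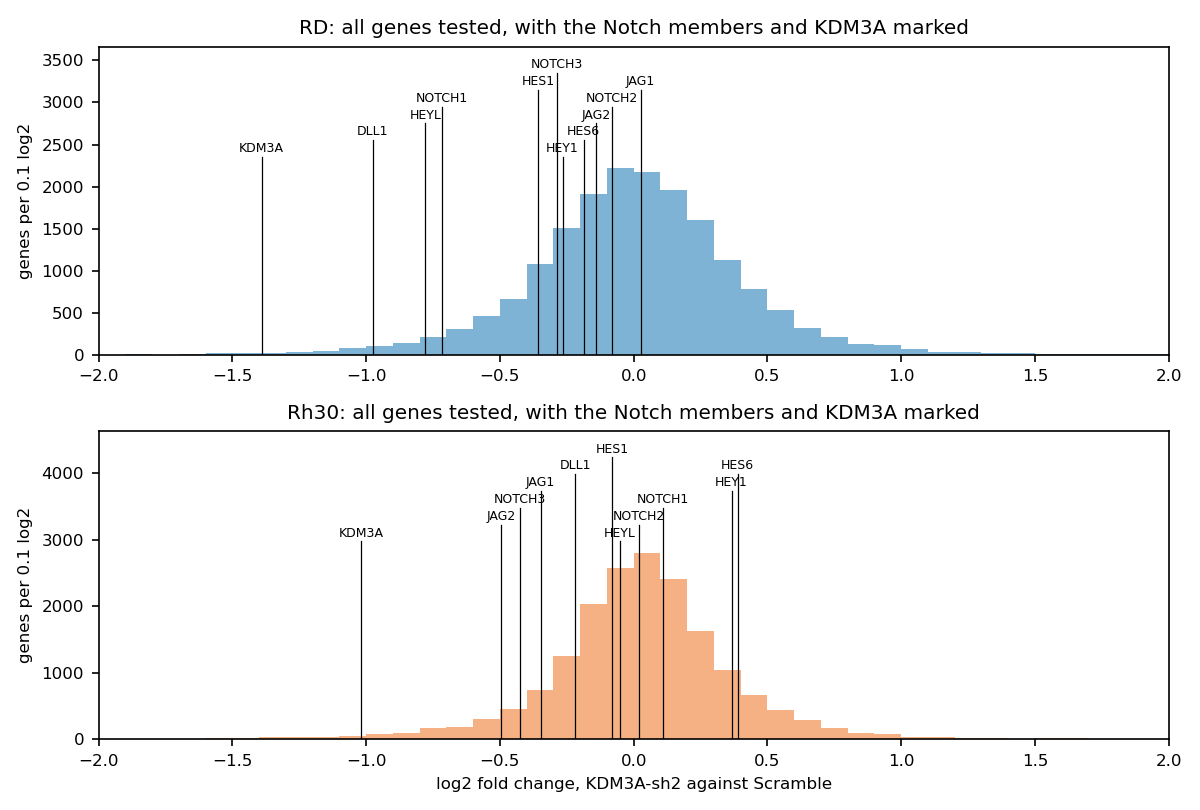
Number of genes tested per bin of 0.1 in log2 fold change (KDM3A-sh2 against Scramble) in RD, above, and Rh30, below, shown from -2 to 2; lines mark the 10 Notch genes and KDM3A, and the height of a line has no meaning. In RD, DLL1, HEYL and NOTCH1 lie among the lowest 4% of genes and JAG1 near the middle; in Rh30 JAG2 is the lowest of the 10 and HES6 the highest.

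Muscle lineage markers moved in the same libraries. MYOD1, the myogenic determination factor, was called lower in RD (means 134 and 113 FPKM, log2 fold change -0.24, adjusted p = 0.00383) and higher in Rh30 (means 770 and 930.5 FPKM, log2 fold change 0.28, adjusted p = 0.0222). MYOG, or myogenin, was called lower in RD (184 and 167 FPKM, log2 fold change -0.14, adjusted p = 0.049) and higher in Rh30 (691 and 1017 FPKM, 0.56, adjusted p = 0.000401). CHRNA1, an acetylcholine receptor subunit of muscle, went the other way, higher in RD (log2 fold change 0.42, adjusted p = 0.000127) and lower in Rh30 (-0.64, adjusted p = 8.54e-05). DES, the muscle intermediate filament, was called higher in RD (0.23, adjusted p = 0.0436) and not called in Rh30 (-0.12, adjusted p = 0.175). The RD call of MYOG was kept under 3 of 15 alternatives and that of DES under 6, without a change of direction. The Rh30 call of MYOD1 was kept under 9 of 15 and was lost with any of the 3 Rh30 KDM3A-sh2 libraries left out. The part of these lineage markers in the Notch results was not tested.

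Markers of other cell types were mostly near 0. Of 5 endothelial markers, PECAM1, CDH5, VWF and KDR were below 1 FPKM as means of all 4 groups, and TIE1, an endothelial receptor kinase, made up nearly all of the list's sum in RD. The summed endothelial level was 19.0 FPKM in RD Scramble, 9.67 FPKM in RD KDM3A-sh2, 3.38 FPKM in Rh30 Scramble and 2.16 FPKM in Rh30 KDM3A-sh2, and TIE1 was called lower in both lines (18.5 and 9.26 FPKM in RD, 1.86 and 0.878 FPKM in Rh30). None of 5 haematopoietic markers had a group mean of 1 FPKM, with CD14 the highest. Of 5 epithelial markers, KRT8 and KRT18 passed 1 FPKM in RD and, with EPCAM, in Rh30, and the list summed to 47.2 and 45.5 FPKM in RD and to 12.3 and 12.6 FPKM in Rh30 (Scramble, then KDM3A-sh2), with KRT18 the most abundant in RD at 43.7 FPKM. In Rh30, KRT18 was called lower with KDM3A-sh2 (4.66 and 3.49 FPKM, log2 fold change -0.33, adjusted p = 0.0371), and EPCAM had means of 4.63 and 6.03 FPKM and was not called (0.30, adjusted p = 0.198).

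Beyond the 10 genes, 56 further genes of the pathway were followed, in 10 role groups. Of the 45 that could be tested in RD, 7 were called lower and 14 higher, against 19.5% and 21.6% of all genes. Of the 45 in Rh30, 9 were called lower and 7 higher, against 13.2% and 15.3% of all genes. The 7 lower calls in RD were 4 without RD Scramble replicate 2 and 3 without replicate 3, and the 9 in Rh30 were 5 without Rh30 KDM3A-sh2 replicate 1. Their median log2 fold change was 0.06 in RD and 0.03 in Rh30. Of the receptor and ligand genes outside the 10, NOTCH4 had means of 0.484 to 3.06 FPKM over the groups, DLL3 of 1.68 to 3.43 FPKM and DLL4 below 1 FPKM. DLL3 was not called with KDM3A-sh2 in either line, NOTCH4 could be tested in Rh30 alone and was not called (log2 fold change 0.44, adjusted p = 0.0644), and DLL4 could not be tested. Between the Scramble groups, NOTCH4 was called higher in Rh30 (1.01, adjusted p = 0.000431) and DLL3 lower (-0.63, adjusted p = 0.00151). The non-canonical ligand gene DNER rose in RD, from 6.62 ± 1.14 to 13.7 ± 1.03 FPKM (SD, n = 3 each; log2 fold change 0.95, adjusted p = 0.000915), and DLK2, another non-canonical ligand, fell by 0.58 on the log2 scale in Rh30 (adjusted p = 0.0136).

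Of the genes for receptor cleavage, 7 of 8 were called higher in RD, against 21.6% of all genes, and none lower, with a median log2 fold change of 0.30. This list, too, was chosen with earlier results of these data known. FURIN, the convertase that processes the receptor before it reaches the surface, went from 28.6 ± 2.07 to 55.7 ± 2.73 FPKM (SD, n = 3 each; log2 fold change 0.94, adjusted p = 9.03e-05). APH1B, a gamma-secretase subunit, went from 9.75 ± 0.497 to 17.2 ± 0.128 FPKM (SD, n = 3 each; log2 fold change 0.76, adjusted p = 0.000136). NCSTN (nicastrin, another subunit), PSENEN, APH1A, ADAM17 and ADAM10 were the other 5, with log2 fold changes of 0.17 to 0.53, and PSEN2 was not called (0.31, adjusted p = 0.0561). With a 1.5-fold requirement, 2 of the 7 remained called. In Rh30, FURIN (log2 fold change 0.65, adjusted p = 0.00355) and PSEN2, a gamma-secretase subunit (0.52, adjusted p = 0.0009), were called higher, and ADAM10, the protease that makes the first ligand-induced cut, lower (-0.36, adjusted p = 0.00141). For 5 of the 8 genes, ADAM10, ADAM17, NCSTN, APH1B and PSENEN, the difference between the lines was called, and in each it was negative (-0.59 to -0.23), against 13.5% of all genes with a negative and 14.4% with a positive called difference. In RD, then, the 7 called cleavage genes and the receptors NOTCH1 and NOTCH3 were called in opposite directions. These enzymes also cut many proteins other than Notch.

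Among the modifiers of receptor and ligand, LFNG, the Fringe glycosyltransferase that alters which ligands a receptor responds to, fell in both lines. Its RD means were 5.12 and 3.14 FPKM, with a log2 fold change of -0.56 (adjusted p = 0.00584). Its Rh30 means were 37.5 and 27.2 FPKM (-0.45, adjusted p = 0.00479). RFNG, another Fringe gene (log2 fold change 0.27, adjusted p = 0.00691), and POFUT1, which adds the fucose that Fringe enzymes extend (0.18, adjusted p = 0.00563), were called higher in RD. NEURL1B, an E3 ligase that promotes ligand uptake, was called lower in RD (-0.42, adjusted p = 0.0181), which held under 9 of 14 alternatives and not without RD Scramble replicate 1 or 3 or RD KDM3A-sh2 replicate 3. No ligand ubiquitination gene was called in Rh30.

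In the nucleus, RBPJ, the DNA-binding partner of the receptor, was called higher in RD and lower in Rh30. Its means were 46.5 ± 1.76 and 54.3 ± 2.14 FPKM for RD (log2 fold change 0.22, adjusted p = 0.0112) and 87.0 ± 3.95 and 73.9 ± 1.81 FPKM in Rh30 (-0.23, adjusted p = 0.0113; SD, n = 3 each). The coactivator gene MAML1 was called higher in both lines (0.44, adjusted p = 0.00621, and 0.33, adjusted p = 0.00476), and MAML2 was called lower in Rh30 (-0.51, adjusted p = 0.0328), where it was near 1 FPKM and kept its call under 6 of 14 alternatives, none of them an omission of a library. TLE3, a Groucho-type corepressor that HES proteins recruit, was called lower in RD, from 31.4 ± 4.23 to 19.5 ± 4.06 FPKM, and higher in Rh30, from 47.4 ± 1.23 to 76.9 ± 4.89 FPKM (SD, n = 3 each). The RD log2 fold change was -0.67 (adjusted p = 0.0143) and the Rh30 one 0.68 (adjusted p = 0.00039), and the F test on unlogged FPKM did not call the RD change (adjusted p = 0.0655). SPEN, an RBPJ-bound corepressor, was called lower in RD (-0.24, adjusted p = 0.0444), which held under 4 of 15 alternatives. In Rh30, TLE1 was called higher (0.30, adjusted p = 0.00205) and TLE4 (-0.22, adjusted p = 0.0195) and the histone deacetylase gene HDAC1 (-0.14, adjusted p = 0.0215) lower, with the call kept under 10 of 15 alternatives for TLE4 and 8 of 15 for HDAC1.

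Among the genes of receptor turnover, the Deltex gene DTX4 was called lower in both lines (RD log2 fold change -0.62, adjusted p = 0.0129; Rh30 -0.56, adjusted p = 0.000643), and DTX3 and the Numb-like gene NUMBL were called higher in both. In RD, DTX4 was near the filter (1.47 and 0.601 FPKM), was tested in 11 of 15 alternatives and called in each, with a log2 fold change of -1.16 at a pseudocount of 0.1. The DTX3 values were 0.47 in RD (adjusted p = 0.000792) and, for Rh30, 0.32 (adjusted p = 0.00222). Those of NUMBL were 0.28 (adjusted p = 0.0295) and 0.33 (adjusted p = 0.0352), calls kept under 8 of 15 alternatives in RD and 4 of 15 in Rh30. DTX2 was called lower in RD although its groups overlapped (-0.44, adjusted p = 0.0468, kept under 6 of 15 alternatives), and NUMB, an endocytic inhibitor of Notch, was called lower in Rh30 (-0.23, adjusted p = 0.0171, kept under 11 of 15). Of the 6 other HES/HEY genes, HES4 alone could be tested in RD, where it was called lower, with 4.51 ± 0.598 and 2.24 ± 0.435 FPKM (SD, n = 3 each; log2 fold change -0.77, adjusted p = 0.00475), in the direction of the 4 main factors. In Rh30, HES4 had means of 4.95 and 5.32 FPKM and was not called (0.08, adjusted p = 0.648).

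**Figure D5:**
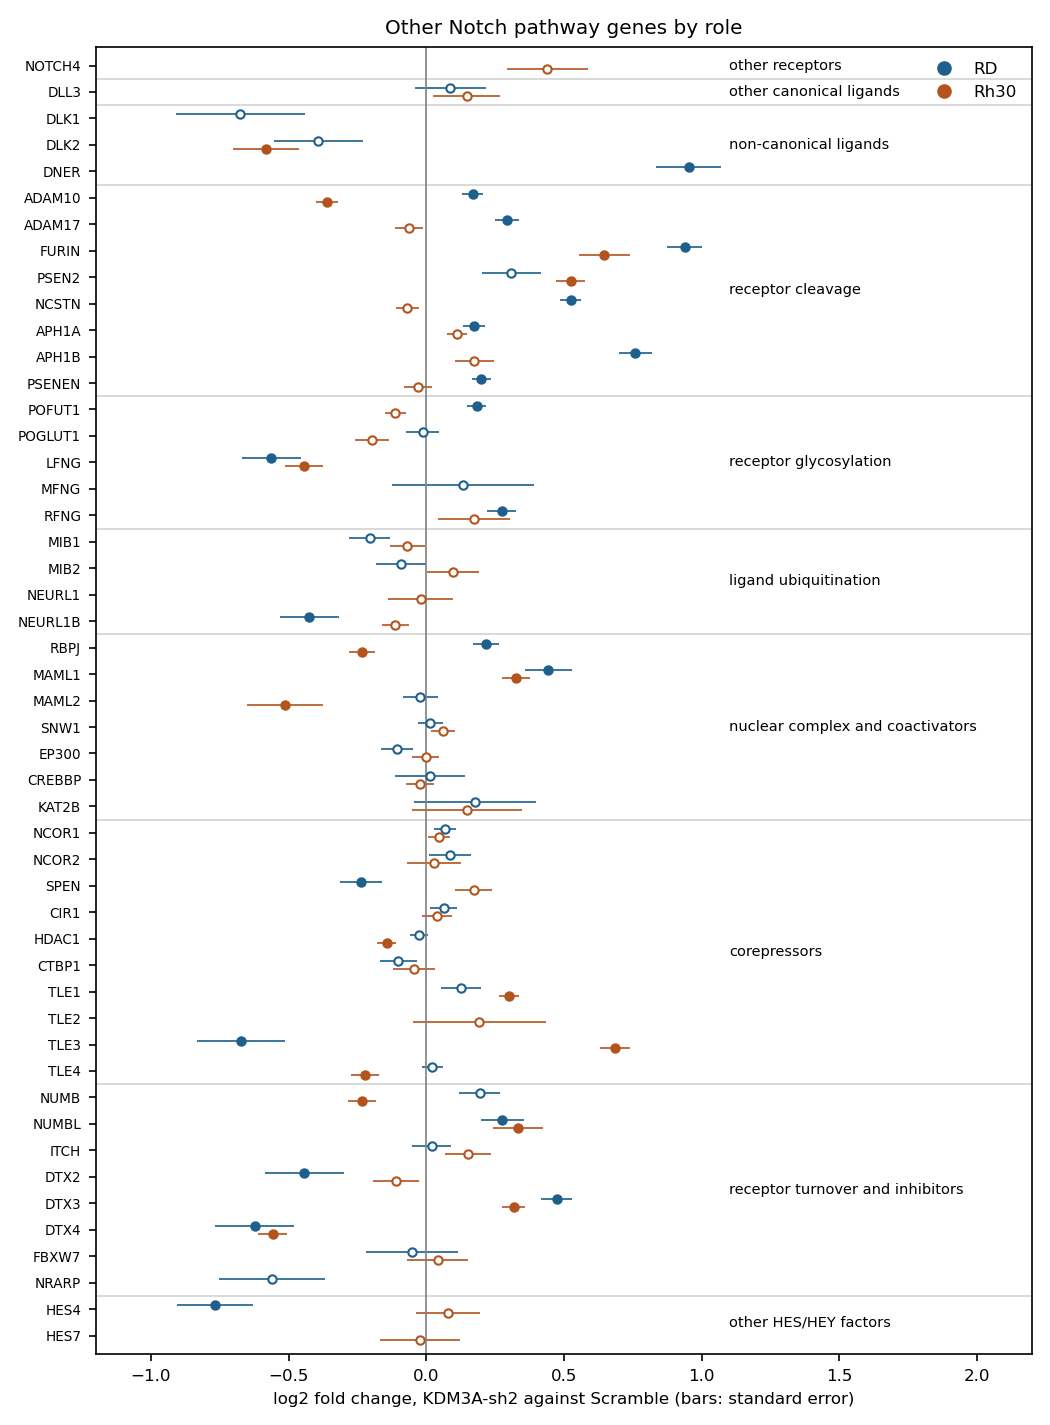
Log2 fold change of KDM3A-sh2 against Scramble in RD and Rh30 for the tested genes of the further pathway list, grouped by role; bars are standard errors and filled points passed the adjusted threshold. Receptor cleavage genes lie right of 0 in RD, and TLE3 lies left of 0 in RD and right of 0 in Rh30.

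Between the lines under Scramble, 19 of 48 tested genes of the further list were called lower and 21 higher in Rh30, beside 39.6% and 34.9% of all genes. Among them, DTX4 (1.47 and 28.7 FPKM in RD and Rh30), LFNG (5.12 and 37.5 FPKM) and ADAM10 (74.5 and 300.4 FPKM) were higher in Rh30, and DNER (6.62 and 0.337 FPKM) and MAML2 (11.9 and 1.76 FPKM) were lower.

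The genes most like each member over the 4 group means were found by the root-mean-square difference of log2(FPKM + 1) after centring each gene on its own mean. The points are 4 groups that share their lines and libraries, and the values describe likeness only. NOTCH1, NOTCH2 and JAG1 spanned less than 1 on the log2 scale and were not matched. HEY1 was most like TFPI2 (difference 0.07) and ST8SIA4 (0.08), HEYL like UBE2CP1 and MND1 (0.04 each), and HES6 like SNHG8 (0.01). HES1 was most like STRA13 (0.01) and RNPS1 (0.02), NOTCH3 like C2CD2L (0.02) and AP1M2 (0.03), JAG2 like LZTFL1 (0.02) and DLL1 like LSM7 (0.07). None of these genes belongs to the Notch lists used here.

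In GRCh38, NOTCH1 (ENSG00000148400) lies at chr9:136494433-136545786, NOTCH2 (ENSG00000134250) at chr1:119911553-120069626 and NOTCH3 (ENSG00000074181) at chr19:15159038-15200981. JAG1 (ENSG00000101384) lies at chr20:10637684-10673999, JAG2 (ENSG00000184916) at chr14:105140981-105168824 and DLL1 (ENSG00000198719) at chr6:170282206-170306565. HES1 (ENSG00000114315) lies at chr3:194136145-194138732, HEYL (ENSG00000163909) at chr1:39624153-39639945 and HES6 (ENSG00000144485) at chr2:238238267-238240662, and the table lists HEY1 as ENSG00000164683. HES1 is on the plus strand and the other 8 given here on the minus strand, and each is a protein-coding gene measured over its exons.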

How the data were processed

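The authors aligned directional, single-end mRNA reads of 12 libraries to GRCh38 with GSNAP, used SAMtools, and deposited FPKM computed with Cufflinks. The annotation release and the strand setting of the counting are not given in the sources used here. The table lists 66095 entries for 65975 gene identifiers. Of each of 117 repeated identifiers, the entry with the highest mean was used, and 999999999, found in 17 genes and none of the 10 Notch genes, was treated as missing.

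Groups came from the labels (3 libraries in each of 4). The titles number the Rh30 Scramble libraries 1 to 3, but their column names all end in 1, whereas those of the other groups end in 1 to 3. Correlations between libraries of a group were 0.989 in Rh30 Scramble and 0.987 to 0.989 in the others. log2(FPKM + 1) was fitted with limma 3.58.1 in R 4.3.3 (eBayes with a trend), over genes averaging 1 FPKM or more across the libraries compared, with two-sided p-values, Benjamini-Hochberg adjustment over all genes tested and a threshold of 0.05. The 2 comparisons within a line used 6 libraries each, the comparison of the Scramble groups 6, and the difference between lines all 12. The Scramble comparison shares its libraries with the others. The code was tested on simulated data. Summed FPKM per library ran from 1198300 to 1379197, and relative depth from 0.865 to 1.22. The members and lists were chosen with earlier results of these data known. The genes named were all 10 members, KDM3A, the cell type markers, the 2 called pathway genes with the largest change in each direction per role and line, and the genes most like each member (the 2 closest with a mean of at least 10 FPKM), of which unnamed transcripts and pseudogenes of the mitochondrial genome are left out of the text; pathway genes given beyond that rule were named after their values were seen. A gene of the pathway list is not reported here. Positions and exons came from GENCODE 29 and promoters from RefSeq (GRCh38.p14). Alternatives were a pseudocount of 0.1, no filter, at least 10 FPKM in 1 library, the TPM scale, median scaling, ANOVA on FPKM, limma without a trend, a 1.5-fold requirement, the replicate number as a block, and each library left out. For the difference between lines, ANOVA compared the changes in FPKM and not those on the log scale. Where levels differ between the lines, its calls answer another question than those of limma.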

Additional observations from a re-analysis of the deposited data

Results flagged for a closer look

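In each of the following genes the effect of KDM3A-sh2 differed between the lines by its own limma test over all 12 libraries (adjusted p below 0.05). The values below subtract the RD log2 fold change from the Rh30 one. Of the 10 Notch genes these were NOTCH1 (0.83), DLL1 (0.76), HEYL (0.73), HEY1 (0.63), HES6 (0.58) and JAG2 (-0.35). KDM3A itself had a difference of 0.37. Among the other pathway genes, the difference was positive for TLE3 (1.36), HES4 (0.85), SPEN (0.41) and NEURL1B (0.31). It was negative for NCSTN (-0.59), APH1B (-0.58), ADAM10 (-0.53), MAML2 (-0.49), RBPJ (-0.45), NUMB (-0.43), ADAM17 (-0.36), POFUT1 (-0.30), TLE4 (-0.24) and PSENEN (-0.23). Among the muscle lineage markers it was 0.70 for MYOG, 0.52 for MYOD1, -0.35 for DES and -1.06 for CHRNA1. The difference of NEURL1B was kept under 12 of 21 alternatives and that of DES under 11 of 21. That of MAML2, near 1 FPKM in Rh30, was kept under 19 of 21 and was -0.83 at a pseudocount of 0.1. ANOVA, which compared changes in FPKM, did not call it (adjusted p = 0.294). MYF5, the remaining marker, was at or near 0 and could not be tested.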

How the results depend on the processing

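The 7 lower calls in RD became 3 (DLL1, HEYL and NOTCH1) with a 1.5-fold requirement. That requirement left 0 lower and 0 higher calls in Rh30 and 0 negative differences between lines. For the further pathway genes it left 3 lower and 3 higher in RD, 0 and 2 in Rh30, 1 negative and 2 positive differences, 9 lower between the Scramble groups and 2 of the 7 higher receptor cleavage genes in RD (7 to 8 with a library left out). The further genes lower in RD were 4 by ANOVA, 3 with a 10 FPKM filter and 3 to 7 with a library left out. In Rh30 they were 5 to 8 with a library left out, and ANOVA gave 7 positive differences. ANOVA left 1 lower and 1 higher call in Rh30 and 0 negative differences. The higher calls in Rh30 were 1 with no filter or a 10 FPKM filter, which leaves out HEY1, and 1 to 2 with a library left out. Negative differences were 1 to 2 with a library left out, the second being JAG1 without Rh30 Scramble replicate 2 (-0.47). Of the further pathway and muscle genes called, 18 of 25 in RD, 13 of 19 in Rh30 and 15 of 18 differences kept their call in each alternative that tested them, apart from the fold requirement, and none reversed.

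The replicate numbers did not pair libraries (correlations of same-numbered deviations within lines -0.07 to -0.01). With the replicate block 1 gene was called higher in Rh30, HEY1 was lost there (adjusted p = 0.0692) and HES1 was lost in RD (0.068).

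The difference of KDM3A between lines was not called with no filter, ANOVA, the 1.5-fold requirement or the replicate block (0.37 each) or on the TPM scale (0.32), and was 0.31 to 0.44 with a library left out. KDM3A was called lower in Rh30 Scramble on the TPM scale (-0.28) and without RD Scramble replicate 3 or Rh30 Scramble replicate 3 (-0.23 each, the range with a library left out being -0.23 to -0.12). Directions reversed for JAG1 in RD without RD Scramble replicate 2 (-0.038, up to 0.066 without another library) and NOTCH2 in Rh30 on the TPM scale (-0.0068), with median scaling (-0.0013) and without Rh30 KDM3A-sh2 replicate 3 (-0.0018, up to 0.050 without another library), none of them called. Sums of the 10 genes on the TPM scale were 615 in RD Scramble, 509.7 in RD KDM3A-sh2 and 303 in Rh30 KDM3A-sh2, against 592, 479 and 320.5 FPKM. The causes were not tested. Read numbers are unknown, which limits statements on genes near 1 FPKM.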
